A study of Mus musculus with 6 samples.

Results

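The Toll-like receptors are the 10 genes Tlr1 to Tlr9 and Tlr13, found by their symbols among the 56092 gene symbols of the count table. They were taken as 5 surface receptors (Tlr1, Tlr2, Tlr4, Tlr5 and Tlr6) and 5 endosomal receptors (Tlr3, Tlr7, Tlr8, Tlr9 and Tlr13). Their transcripts were measured by stranded poly(A) RNA sequencing of RAW264.7 cells, a mouse macrophage line, in 2 groups of 3 libraries. The shNC group carried a control hairpin and the shTrem2 group a hairpin against Trem2, a lipid-sensing receptor of macrophages. Both hairpins were delivered by a lentivirus that also encodes GFP, and the cells were selected with puromycin. Both groups were given 20 ng/mL of IL-4 for 24 hours and were then cultured with debris of TCMK-1 cells, a mouse kidney tubular epithelial line killed by freezing and thawing, for a further 24 hours. The methods list a pair of hairpins against Trem2 and the labels do not say which was sequenced, so which hairpin the shTrem2 cells carried is not known here, and an effect of the hairpin itself and one of lower Trem2 cannot be told apart. No library without IL-4 or without debris was analysed here. Nothing in the labels says that the replicates came from separate cultures, and the p-values then measure only the spread between these libraries, which may be technical.

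Toll-like receptors are membrane proteins with leucine-rich repeats that bind microbial molecules and, in some cases, molecules set free by damaged cells. Those at the cell surface mainly bind lipids and proteins of microbes, whereas those in endosomes bind nucleic acids and reach that compartment with the help of the transport protein Unc93b1. All of them signal through adaptors with a TIR domain: Myd88 serves every member except Tlr3 and leads to NF-kB and inflammatory cytokines, and Ticam1 (TRIF) serves Tlr3 and Tlr4 and leads to type I interferon.

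Trem2, the targeted gene, had 114, 122 and 144 counts scaled to library size (CPM) in the shNC libraries and 64.7, 63.2 and 80.2 CPM in the shTrem2 libraries, and the groups did not overlap. This was 1.83-fold lower (log2 fold change -0.87 ± 0.0939, SE, adjusted p = 3.39e-06, quasi-likelihood test of edgeR, Benjamini-Hochberg adjusted over 13528 genes), while on the FPKM scale of the authors, which is per transcript length, the mean fell from 178 ± 28.5 to 41.7 ± 4.14 (SD, n = 3), a ratio of 0.234. The size of the fall thus differed between the scales. Its log2 fold change ran from -2.08 to -0.77 over 17 alternative fits, and Trem2 was called in all 17. Total counts ranged from 16054486 to 18290532 in shNC and from 19545744 to 19835186 in shTrem2. Of 8 macrophage markers, 7 had more than 3 counts in every library and Mertk had at most 3. The summed level of the 8 was 4857 to 5779 CPM in shNC and 9849 to 11010 CPM in shTrem2, and without Lyz2, the most abundant, it was 2334 to 2575 CPM and 3022 to 3126 CPM. Within that list Lyz2, Csf1r, Fcgr1 and Spi1 were higher in every shTrem2 library than in any shNC library, and Itgam and Adgre1 were lower. Among all tested genes 63.8% did not overlap between the groups, 32.1% higher and 31.7% lower in shTrem2, so such differences were common. The part that these differences in macrophage genes have in the receptor results was not tested, and in bulk RNA fewer cells of a type and less RNA per cell cannot be told apart. Of 14 tubular epithelial markers, 10 had at most 3 counts in every library, among them Epcam, Cdh1, Krt8, Krt18, Umod, Slc12a1 and Kap at 0. The highest count was 50, for Aqp1, which had 5 to 12 counts in shNC and 38 to 50 in shTrem2. The summed level was 1.10 to 1.78 CPM in shNC and 2.22 to 2.98 CPM in shTrem2. Without Aqp1 the sum was lower in shTrem2, at 0.206 to 0.366 CPM against 0.746 to 1.44 CPM, and its part in the results was not tested. Plasmacytoid dendritic cells and B cells also carry Tlr7 and Tlr9, and their defining markers were near 0, with at most 2 counts of Siglech and no count of Ms4a1. Ccr9 had at most 5.49 counts, and Tcf4, which is not confined to plasmacytoid dendritic cells, had 132 to 140 CPM in shNC and 103 to 116 CPM in shTrem2. The highest count of a B cell marker was 7. Fibroblast and neutrophil markers reached 8 and 1 counts at most. Of the T cell markers Cd3e and Cd3d had at most 2 counts and Cd8a none, whereas Lck had 2.86 to 4.07 CPM in shNC and 4.84 to 5.53 CPM in shTrem2. Tcf4 and Lck thus differed between the groups without overlap, as did 63.8% of all tested genes, and their part in the results was not tested.

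Levels of different receptors were compared in FPKM. In shNC cells Tlr7 and Tlr2 were the most abundant, with means of 37.8 ± 11.0 and 36.2 ± 3.88 FPKM, and their ranges overlapped. Tlr4 and Tlr13 followed at 24.6 ± 1.83 and 24.2 ± 0.949 FPKM, again with overlapping ranges. Tlr1 (12.8 ± 0.146), Tlr6 (9.18 ± 0.691), Tlr9 (3.78 ± 0.169), Tlr3 (2.60 ± 0.826) and Tlr8 (0.967 ± 0.539) came next, each separate from its neighbours in the order. The levels of Tlr3 and Tlr8 are less certain, because the division of their counts between transcript rows was unstable. The row with the most counts held 0% to 64.4% of Tlr3 and 0% to 100% of Tlr8, depending on the library. Tlr8 had 41 counts and 1.58 FPKM in shNC replicate 1, but 39 counts and 0.75 FPKM in shNC replicate 3. Tlr5, the receptor for flagellin, had no count in any of its 4 transcript rows in any library, which allows at most 3 counts, or 0.153 to 0.189 CPM (counting error only). In shTrem2 cells the means of 3 neighbouring pairs had changed places. The mean of Tlr2 (67.2 ± 1.97 FPKM) was above that of Tlr7 (63.5 ± 2.36), with ranges that overlapped as in shNC cells. That of Tlr6 (11.8 ± 1.66) was above that of Tlr1 (10.3 ± 1.16), also with overlap, and Tlr3 (7.93 ± 0.854) lay above Tlr9 (3.71 ± 0.199) without overlap. Tlr4 and Tlr13, at 36.0 ± 3.09 and 29.7 ± 0.282 FPKM, no longer overlapped, and Tlr8 was the lowest detected receptor at 2.18 ± 0.436 FPKM. The remaining mouse receptors, Tlr11 and Tlr12, had no counts.

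**Figure D1:**
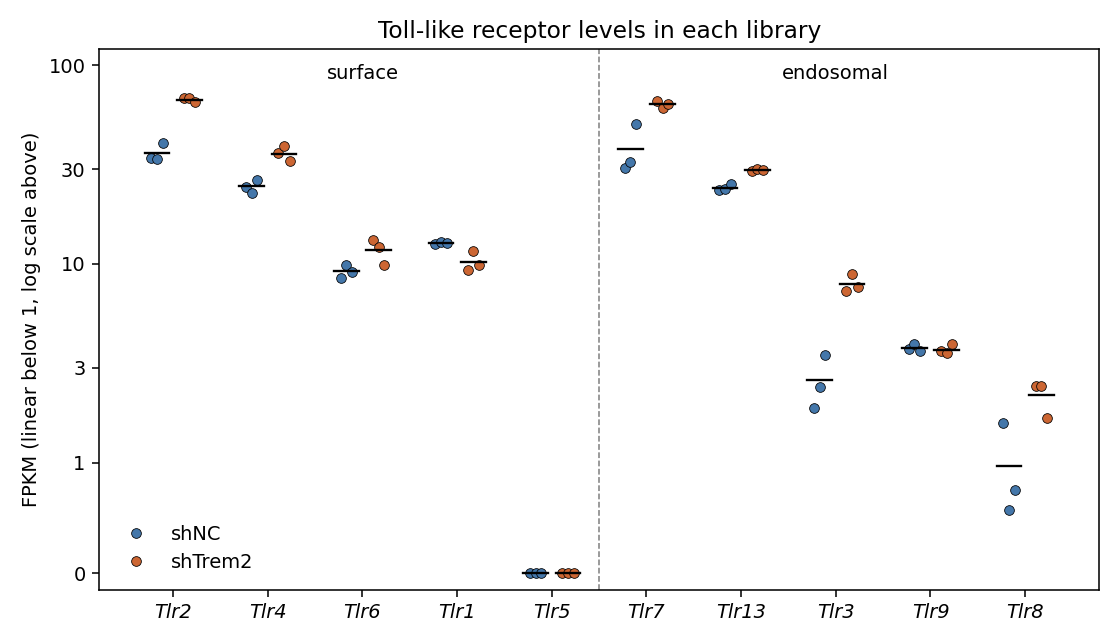
Level of each Toll-like receptor in FPKM (y axis, logarithmic above 1 and linear below) in each of the 3 shNC and 3 shTrem2 libraries, surface receptors on the left and endosomal receptors on the right. Points are libraries and bars are group means. Tlr2, Tlr4, Tlr6, Tlr3, Tlr7, Tlr8 and Tlr13 are higher in every shTrem2 library on this scale, Tlr1 is lower, Tlr9 overlaps, and Tlr5 is at 0 throughout.

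The 9 receptors with counts passed the filter on low counts and were tested in the fit over all 13528 genes. Their lowest count in any library was 31, for Tlr8. At an FDR under 0.05, 6 were higher and 1 was lower in shTrem2 cells, and Tlr6 and Tlr9 did not pass. That is 77.8% of the tested receptors, where 57.4% of all tested genes passed, 28.8% higher and 28.6% lower. With a fold change over 1.5 required as well, 4 receptors (Tlr2, Tlr3, Tlr7 and Tlr8) were called higher and none was called lower, beside 21.8% of all tested genes, 9.46% higher and 12.4% lower. The CPM values of the groups did not overlap for 7 of the 9, 6 of them higher in shTrem2, beside 63.8% of all tested genes, 32.1% higher and 31.7% lower. The comparison as a whole thus changed a large share of genes, and the counts for the receptors are given as a description of these 9 genes.

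**Figure D2:**
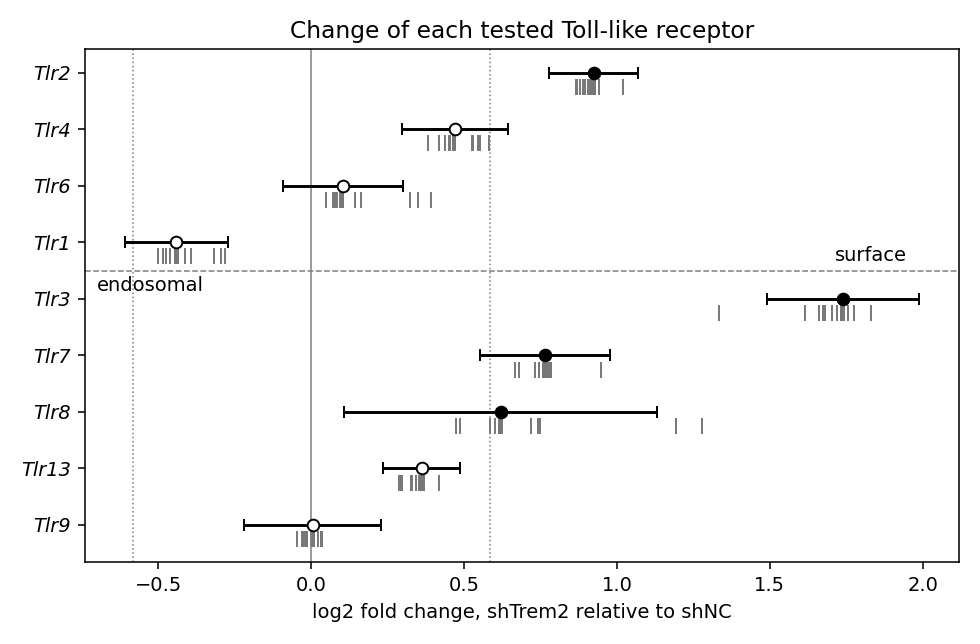
Log2 fold change of shTrem2 relative to shNC for the 9 tested receptors (x axis) from edgeR's quasi-likelihood fit, n = 3 per group. Circles are estimates, filled where the receptor was called, bars are 95% intervals, grey ticks are 17 alternative fits, and dotted lines mark a fold change of 1.5. Tlr3 has the largest change at 1.74, Tlr1 is the only estimate below 0, and the intervals of Tlr6 and Tlr9 span 0.

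Among the surface receptors Tlr2 changed most. Tlr2 recognises bacterial lipopeptides as a dimer with Tlr1 or Tlr6. It had 91.3, 90.9 and 110.0 CPM in shNC cells and 188, 188 and 178 CPM in shTrem2 cells. All 3 shTrem2 values lay above the shNC values, and the rise was 1.90-fold (log2 fold change 0.92 ± 0.0672, SE, 95% interval 0.78 to 1.07, edgeR adjusted p = 8.33e-08). Tlr1, which pairs with Tlr2 to bind triacylated lipopeptides, moved the other way. It had 28.2, 31.1 and 29.6 CPM in shNC cells and 20.5, 23.7 and 21.4 CPM in shTrem2 cells. The groups did not overlap, and the fall was 1.36-fold (log2 fold change -0.44 ± 0.0787, SE, 95% interval -0.61 to -0.27, edgeR adjusted p = 2.91e-04), which is under the fold threshold. With an offset for effective transcript length the log2 fold change of Tlr1 was smaller, at -0.28 (edgeR adjusted p = 0.0351). Tlr6, which pairs with Tlr2 to bind diacylated lipopeptides, had 18.4, 20.1 and 18.3 CPM in shNC cells and 20.7, 21.9 and 18.4 CPM in shTrem2 cells. These ranges overlapped and the difference did not pass the test (log2 fold change 0.10 ± 0.0915, SE, 95% interval -0.09 to 0.30, edgeR adjusted p = 0.354). It was 0.05 to 0.16 with 1 library left out (adjusted p = 0.148 to 0.7). In FPKM the groups of Tlr6 did not overlap, and with an offset for effective transcript length the log2 fold change was 0.39 (adjusted p = 0.0255). The minor transcript rows of Tlr6 held 2.03% to 2.62% of its counts in shNC and 3.56% to 15.7% in shTrem2. Those of Tlr1 held 10.6% to 25.5% in shNC and 21.4% to 31.5% in shTrem2. Tlr1 and Tlr6 are neighbouring genes of similar sequence. Of the 100-base stretches of annotated Tlr1 transcripts, 7.89% also occurred in Tlr6 transcripts, and 7.09% the other way, so reads from those stretches could be divided between them. No other pair of members shared such stretches.

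The start regions of Tlr2 and Tlr1, which moved in opposite directions, are given here from the RefSeq promoter windows of build GRCm38.p6 (250 bases before to 50 after the transcript start, minus strand, 5′ to 3′). Capitals mark matches on either strand to the letters searched, GGG, 3 bases of any kind and TTCC for NF-kB, GAAA, 2 bases of any kind and GAAA for the interferon-stimulated response element, GAGGAA for PU.1 and TGANTCA for AP-1. The windows are chr3:83841559-83841858 for Tlr2 and chr5:64933509-64933808 for Tlr1, the first of 2 windows that table holds for it.
Tlr2: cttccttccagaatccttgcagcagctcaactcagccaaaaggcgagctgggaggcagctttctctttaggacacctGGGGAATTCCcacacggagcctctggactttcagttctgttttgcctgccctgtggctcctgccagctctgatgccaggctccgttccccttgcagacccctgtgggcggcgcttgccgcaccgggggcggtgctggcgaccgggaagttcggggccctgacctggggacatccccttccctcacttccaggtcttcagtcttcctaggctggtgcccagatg
Tlr1: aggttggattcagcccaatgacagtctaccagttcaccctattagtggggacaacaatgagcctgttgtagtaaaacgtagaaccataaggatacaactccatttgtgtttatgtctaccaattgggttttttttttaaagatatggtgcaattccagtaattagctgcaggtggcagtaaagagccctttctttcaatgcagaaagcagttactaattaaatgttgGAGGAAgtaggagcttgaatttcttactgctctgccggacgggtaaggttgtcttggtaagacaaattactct
The Tlr2 window holds the NF-kB letters GGGGAATTCC at position -173 from the start. The Tlr1 window holds the PU.1 letters at -23 and no match to the NF-kB letters. Of the 10 members, 8 had an entry, with 10 windows in all, and Tlr4 and Tlr7 had none. The NF-kB letters occurred in 3 of the 10 windows (Tlr2, Tlr3 and Tlr6) and in 5.56% of all 32851 windows of that table. The PU.1 letters occurred in 4 (Tlr1, Tlr8, Tlr9 and Tlr13), beside 28.3% of all windows. The interferon-response letters were found in a window of Tlr6 only, beside 3.44% of all, and the AP-1 letters in that of Tlr9 only, beside 7.81%. A match describes letters and is not evidence of binding.

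Tlr4, the receptor for lipopolysaccharide and the only member known to use both Myd88 and Ticam1, had 89.5, 85.2 and 97.2 CPM in shNC cells and 126, 141 and 109 CPM in shTrem2 cells. The groups did not overlap, and shTrem2 replicate 3 was the nearest to the shNC values. The rise was 1.39-fold (log2 fold change 0.47 ± 0.0800, SE, 95% interval 0.30 to 0.64, edgeR adjusted p = 1.99e-04), under the fold threshold. The makeup of the surface receptors therefore differed between the groups. Tlr2 made up 42.8%, 42.6% and 45.7% of the summed surface FPKM in shNC cells and 53.8%, 52.2% and 55.2% in shTrem2 cells. The FPKM of Tlr2 relative to Tlr1 went from a mean of 2.83 ± 0.309 to 6.58 ± 0.680, and relative to Tlr6 from 3.96 ± 0.517 to 5.77 ± 0.695. Tlr1 relative to Tlr6 went from 1.40 ± 0.0891 to 0.885 ± 0.154. None of these 3 ratios overlapped between the groups (SD, n = 3), and no separate test was made on them.

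Among the endosomal receptors Tlr3 changed most, and its log2 fold change was the largest of the 9. Tlr3 binds double-stranded RNA and signals through Ticam1 alone. It had 5.47, 5.27 and 6.38 CPM in shNC cells and 18.7, 18.2 and 20.4 CPM in shTrem2 cells. Every shTrem2 library was far above the shNC libraries, and the rise was 3.34-fold (log2 fold change 1.74 ± 0.116, SE, 95% interval 1.49 to 1.99, edgeR adjusted p = 3.62e-08). Tlr7, which binds single-stranded RNA, had 104, 107 and 148 CPM in shNC cells and 210, 200 and 200 CPM in shTrem2 cells. The shNC replicate 3 stood apart from the other shNC libraries but still below all shTrem2 libraries. The rise was 1.70-fold (log2 fold change 0.76 ± 0.0990, SE, 95% interval 0.55 to 0.98, edgeR adjusted p = 1.84e-05), and 0.95 on the log2 scale without that library. Of the shNC libraries, replicate 3 also had the highest CPM of Tlr2, Tlr3, Tlr4 and Tlr13, but not of Tlr1, Tlr6, Tlr8 and Tlr9. Tlr8, the neighbour of Tlr7 on the X chromosome and its close relative, was low, with 41, 31 and 39 counts in shNC cells and 52, 74 and 63 in shTrem2 cells. These counts gave 2.55, 1.72 and 2.15 CPM against 2.71, 3.87 and 3.25 CPM, with a narrow gap between the groups. The log2 fold change was 0.62 ± 0.238 (SE, 95% interval 0.11 to 1.13, edgeR adjusted p = 0.0389). This call was lost in 7 of 17 alternative fits, among them DESeq2 (adjusted p = 0.0645) and 4 of the 6 fits that left out 1 library. Those 4 gave 0.47 without shNC replicate 2 (adjusted p = 0.152), 0.62 without shNC replicate 3 (0.0793), 0.49 without shTrem2 replicate 2 (0.145) and 0.62 without shTrem2 replicate 3 (0.0766). With the offset for effective length the estimate was 1.28, more than 1.5 times as large. That offset uses the FPKM, and the part that the unstable division of Tlr8 counts between transcript rows has in it was not tested.

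Tlr13, which recognises bacterial ribosomal RNA in mice, had 81.0, 88.9 and 94.9 CPM in shNC cells and 113, 114 and 113 CPM in shTrem2 cells. The groups did not overlap, and the rise was 1.28-fold (log2 fold change 0.36 ± 0.0580, SE, 95% interval 0.24 to 0.49, edgeR adjusted p = 1.24e-04), under the fold threshold. Tlr9, which binds unmethylated CpG DNA, was the exception among the endosomal receptors. It had 11.7, 12.5 and 11.5 CPM in shNC cells and 11.7, 11.5 and 12.7 CPM in shTrem2 cells, and the ranges nearly coincided. The log2 fold change was 0.01 ± 0.104 (SE, edgeR adjusted p = 0.971), and its 95% interval of -0.22 to 0.23 leaves room for a small change in either direction. Tlr7 and Tlr9 compete for Unc93b1 in the endosomal route. The FPKM of Tlr7 relative to Tlr9 was 10.1 ± 3.28 in shNC cells and 17.1 ± 1.01 in shTrem2 cells (SD, n = 3), without overlap.

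The start regions of Tlr3 and Tlr9, the endosomal receptors with the largest and the smallest change, are given in the same form. The windows are chr8:45410331-45410630 (minus strand) for Tlr3 and chr9:106222348-106222647 (plus strand) for Tlr9.
Tlr3: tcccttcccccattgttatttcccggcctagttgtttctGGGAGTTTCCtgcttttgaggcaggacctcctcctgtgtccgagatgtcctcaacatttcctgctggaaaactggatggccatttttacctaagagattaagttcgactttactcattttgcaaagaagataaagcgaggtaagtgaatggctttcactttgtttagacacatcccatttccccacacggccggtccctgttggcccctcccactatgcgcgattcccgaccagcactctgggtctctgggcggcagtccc
Tlr9: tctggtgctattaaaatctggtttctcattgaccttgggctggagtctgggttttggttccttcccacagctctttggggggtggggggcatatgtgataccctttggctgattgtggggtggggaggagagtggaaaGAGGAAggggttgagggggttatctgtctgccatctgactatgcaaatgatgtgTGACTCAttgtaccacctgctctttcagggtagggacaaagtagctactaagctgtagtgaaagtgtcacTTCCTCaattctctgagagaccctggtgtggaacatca
The capitals in the Tlr3 window are the NF-kB letters GGGAGTTTCC at position -211. Those in the Tlr9 window are PU.1 letters at -112 and, on the opposite strand, at 13, and AP-1 letters at -58. The Tlr9 window holds no match to the NF-kB letters, which says only that these letters are not in this window.

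Surface and endosomal receptors were then compared. Of the 4 tested surface receptors, 2 were higher and 1 was lower at an FDR under 0.05, 1 was called, and the median log2 fold change was 0.29, or 0.49 with the offset for effective length and 0.45 on log2(FPKM + 0.1). Of the 5 endosomal receptors, 4 were higher, none was lower and 3 were called, of which the call of Tlr8 was lost in 7 of 17 alternative fits. The endosomal median was 0.62, or 0.78 both with that offset and on log2(FPKM + 0.1), while the median of all tested genes was -0.00. Among all tested genes 57.4% passed the FDR and 21.8% were called. These medians rest on 4 and 5 genes, that of the endosomal receptors is the value of Tlr8 itself, and no test was made between them. The summed FPKM of the surface receptors was 79.7, 79.5 and 89.1 in shNC cells and 127, 131 and 118 in shTrem2 cells, a ratio of means of 1.51. The summed FPKM of the endosomal receptors was 61.0, 63.4 and 83.6 in shNC cells and 109, 106 and 107 in shTrem2 cells, a ratio of 1.54. Both sums were higher in every shTrem2 library. Endosomal receptors accordingly made up similar shares of the receptor FPKM, with 43.4%, 44.4% and 48.4% in shNC cells and 46.2%, 44.7% and 47.5% in shTrem2 cells. The difference of 0.743 percentage points was smaller than the SD of either group (2.67 and 1.44), and the groups overlapped. Within the endosomal receptors, Tlr7 held 49.8%, 51.4% and 60.3% of the FPKM in shNC cells and 60.7%, 57.7% and 59.6% in shTrem2 cells, with overlap through shNC replicate 3.

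**Figure D3:**
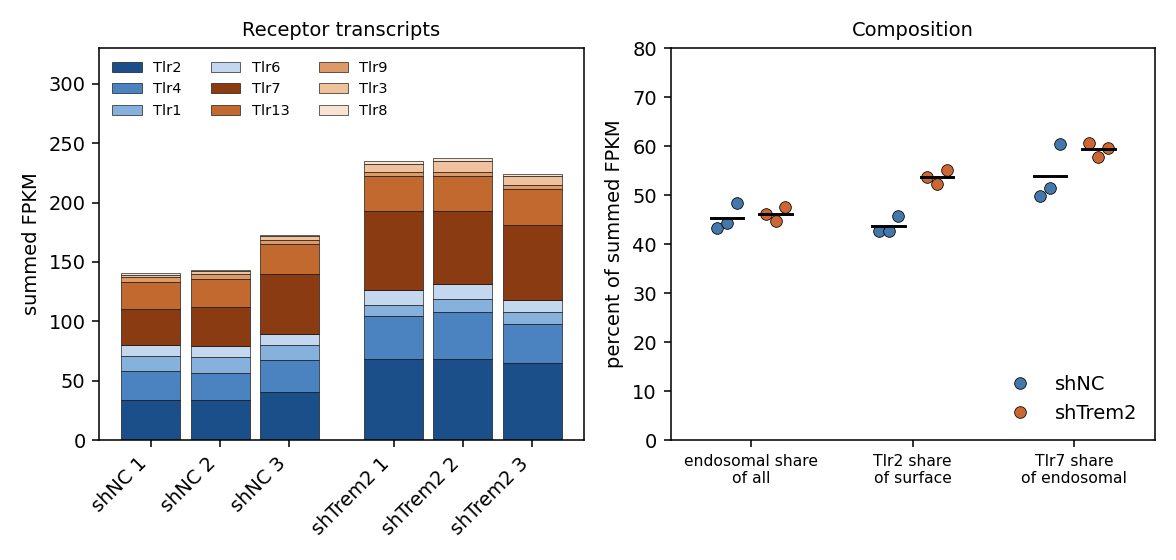
Left, summed FPKM of the receptors in each library, stacked by receptor, with surface receptors in blue and endosomal receptors in orange (y axis in FPKM). Right, 3 shares in percent, with libraries as points and group means as bars. The stacks of the shTrem2 libraries are higher, the endosomal share overlaps between groups, and the Tlr2 share of the surface receptors does not.

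The genes that work with the receptors were described from lists by role. Of 6 co-receptors and ligand carriers, 5 were tested, 3 were higher (Cd14, Cd36 and Cd180) and 1 was lower (Ly86) at an FDR under 0.05, beside 57.4% of all tested genes, 28.8% higher and 28.6% lower. The median log2 fold change was 0.16, and it was 0.10 without shTrem2 replicate 3, 0.06 with the offset for effective length and 0.02 on either FPKM scale. Cd14, which hands lipopolysaccharide to Tlr4, had 458, 484 and 527 CPM in shNC cells and 626, 514 and 757 CPM in shTrem2 cells, which overlap (log2 fold change 0.37 ± 0.102, SE, edgeR adjusted p = 0.00697). It did not pass in 3 of 17 alternative fits, where the adjusted p was 0.0601 with DESeq2 and 0.0773 and 0.0752 with limma on FPKM. Without shTrem2 replicate 3 its log2 fold change was 0.21, which still passed the FDR. Ly96 (MD-2), the part of the Tlr4 complex that holds the lipid, had means of 6.90 CPM in shNC cells and 7.05 CPM in shTrem2 cells. On the FPKM scale these means were 22.7 and 22.4. Ly96 did not pass (log2 fold change 0.04, adjusted p = 0.870). The FPKM of Ly96 relative to Tlr4 went from 0.924 ± 0.236 to 0.628 ± 0.0775 without overlap, and that of Cd14 relative to Tlr4 overlapped (16.8 ± 1.02 and 14.7 ± 4.05). Cd36, a scavenger receptor that aids Tlr2 and Tlr6, was called higher from a low level, with 9, 11 and 15 counts in shNC cells and 49, 34 and 45 in shTrem2 cells (log2 fold change 1.72, adjusted p = 3.89e-04), though it was not called on log2(FPKM + 1), where the change was 0.42. Cd180 and Ly86 (MD-1) form a receptor complex related to that of Tlr4 and Ly96. Ly86 fell by 0.53 on the log2 scale (adjusted p = 2.71e-06), and by 0.60 without shTrem2 replicate 3, which is past the fold threshold. Cd180 had a log2 fold change of 0.16 (adjusted p = 0.0342), which did not pass in 8 of 17 alternative fits. It was 0.12 without shNC replicate 1 (adjusted p = 0.169), 0.18 without shNC replicate 2 (0.0648) and 0.10 without shTrem2 replicate 3 (0.175). It was 0.06 with the offset for effective length (adjusted p = 0.63) and 0.02 on either FPKM scale (0.886 and 0.887).

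Of 11 genes for chaperones, trafficking and processing, 3 were higher and 3 were lower at an FDR under 0.05, 2 were called lower, and the median was 0.03. It lay near 0 in the alternatives, at -0.0031 with library size only, 0.000261 to 0.066 with 1 library left out and 0.0788 with the offset for effective length. Among all tested genes 57.4% passed and 21.8% were called, close to the shares in this list. Unc93b1, the transporter of the endosomal receptors, had 332, 336 and 358 CPM in shNC cells and 356, 360 and 333 CPM in shTrem2 cells, which overlap (log2 fold change 0.03, adjusted p = 0.606). Its FPKM relative to the summed endosomal receptors was 3.10, 3.04 and 2.41 in shNC cells and 1.91, 1.97 and 1.85 in shTrem2 cells, without overlap. The chaperone Hsp90b1 (gp96), on which folding of most of the receptors depends, rose by 0.22 on the log2 scale (adjusted p = 0.00231), and its partner Cnpy3 did not pass (0.10, adjusted p = 0.159). The called genes were Slc15a3 (log2 fold change -0.92, adjusted p = 5.58e-07), a lysosomal transporter of histidine and peptides, and Ctsl (-0.77, adjusted p = 3.92e-08), a lysosomal protease.

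Of 6 TIR adaptors, 2 were higher and 2 were lower at an FDR under 0.05, beside 57.4% of all tested genes. Ticam1, the adaptor of Tlr3, was the only one called, beside 21.8% of all tested genes. It had 36.8, 33.8 and 31.7 CPM in shNC cells and 18.0, 19.2 and 18.4 CPM in shTrem2 cells. The groups did not overlap and the fall was 1.84-fold (log2 fold change -0.88 ± 0.0776, SE, edgeR adjusted p = 5.04e-07), in the direction opposite to Tlr3. Myd88 had a log2 fold change of 0.17 (adjusted p = 0.0162) and Ticam2, the bridge from Tlr4 to Ticam1, one of 0.21 (adjusted p = 0.0223). These small differences did not pass in 5 and 8 of the 17 alternative fits. Myd88 was 0.16 without shNC replicate 1 (adjusted p = 0.0618), 0.14 without shNC replicate 2 (0.0918) and 0.16 without shTrem2 replicate 1 (0.0682). Ticam2 was 0.19 and 0.21 without shNC replicate 1 or 2 (adjusted p = 0.0758 and 0.0627), and 0.21 and 0.15 without shTrem2 replicate 1 or 2 (0.0576 and 0.0947). Tirap, the bridge from Tlr2 and Tlr4 to Myd88, did not pass (0.13, adjusted p = 0.209), except without shTrem2 replicate 2 (0.23, adjusted p = 0.021). Pik3ap1, which links the receptors to PI3K, was the other adaptor that was lower, at -0.40 (adjusted p = 3.22e-06).

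Of 19 signalling kinases and ubiquitin enzymes, 5 were higher and 9 were lower at an FDR under 0.05, and 3 were called, all lower, beside 57.4% of all tested genes passing and 21.8% called. Irak2, a kinase that prolongs Myd88 signalling, had 168, 165 and 142 CPM in shNC cells and 47.7, 47.3 and 45.9 CPM in shTrem2 cells (log2 fold change -1.75 ± 0.0655, SE, edgeR adjusted p = 2.90e-10). Ikbke (IKK-epsilon), which phosphorylates interferon regulatory factors, had 133, 130 and 104 CPM in shNC cells and 23.2, 27.6 and 25.7 CPM in shTrem2 cells (-2.26 ± 0.0938, adjusted p = 5.64e-10). Neither gene overlapped between groups. Map3k8 (Tpl2), which leads to ERK, fell by 0.87 (adjusted p = 1.51e-06). Named irrespective of their result, the kinases Irak4 and Irak1 and the ubiquitin ligase Traf6 had smaller log2 fold changes than Irak2, at -0.25 for Irak4 (adjusted p = 0.0136), 0.22 for Irak1 (0.00306) and 0.26 for Traf6 (0.00163). All 3 passed the FDR and none passed the fold threshold, and Traf6 did not pass in 2 of 17 alternative fits. The shares of all tested genes passing and called, 57.4% and 21.8%, apply to the next lists too. Of 5 interferon regulatory factors, 1 was higher (Irf7, 0.48, adjusted p = 1.33e-06) and 3 were lower, of which Irf8 was called, a factor that sets macrophage and dendritic cell identity (-0.95, adjusted p = 1.53e-08). Of 11 negative regulators, 3 were higher and 4 were lower, with Sigirr (-1.09, adjusted p = 1.35e-06) and Tnip1 (-0.78, adjusted p = 5.30e-08) called lower and Rnf216 (0.61, adjusted p = 2.90e-06) called higher. The call of Rnf216 was lost in 4 of 17 alternative fits, where it fell under the fold threshold, at 0.54 without shNC replicate 2, 0.58 with library size only, and 0.55 and 0.58 on the FPKM scales. Rnf216 is a ubiquitin ligase linked to the turnover of Toll-like receptors.

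The lists of genes induced downstream of the receptors went in opposite directions. Of 15 targets of Myd88 and NF-kB, 8 were tested and 7 of these were called lower, with a median log2 fold change of -1.78. These 7 include Csf3, with 24, 39 and 14 counts in shNC cells and 1, 4 and 4 in shTrem2 cells. Csf3 passed the filter only through its shNC counts, so its call carries no weight. With at least 10 counts required in every sample, 7 targets remained, without Csf3, and the median was -1.69. Only Cxcl2 did not pass (0.07, adjusted p = 0.571), and its direction was not stable, at -0.42 with the offset for effective length, -0.44 and -0.45 on the FPKM scales and -0.07 without shNC replicate 3. Tnf had 337, 329 and 296 CPM in shNC cells and 161, 136 and 163 CPM in shTrem2 cells, a 2.09-fold fall (log2 fold change -1.07 ± 0.0692, SE, edgeR adjusted p = 2.88e-08). The chemokine Ccl3 had 868, 865 and 728 CPM in shNC cells and 211, 171 and 205 CPM in shTrem2 cells, and Ptgs2, the inducible cyclooxygenase, had 298, 279 and 178 CPM against 23.1, 22.1 and 21.4 CPM. Their log2 fold changes were -2.07 (adjusted p = 4.61e-10) and -3.50 (adjusted p = 1.12e-09), and those of Ccl4 and Nos2 were -1.88 (adjusted p = 1.18e-09) and -1.69 (adjusted p = 3.17e-08). In each of the 8 tested targets shNC replicate 3 had the lowest CPM of the shNC libraries, though its Trem2, at 144 CPM, was the highest of them. The 7 targets that were not tested include Il6, with at most 2 counts in any library, and Il1b, with at most 12.

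Of 10 targets of TRIF and interferon, 9 were tested, 8 were called higher and none lower, with a median log2 fold change of 1.25. Ifit1, which binds foreign RNA, had 2.24, 1.498 and 2.26 CPM in shNC cells and 20.5, 21.9 and 16.9 CPM in shTrem2 cells. The groups were far apart, and the rise was 9.91-fold (log2 fold change 3.31 ± 0.167, SE, edgeR adjusted p = 2.91e-09). Ifit3 rose by 3.32 (adjusted p = 2.88e-08), Rsad2 (viperin) by 1.64 (adjusted p = 6.40e-08) and Mx1 by 1.44 (adjusted p = 1.92e-04). The size of the Mx1 change depended on the fit, from 0.68 to 1.70 over the 17 alternatives, and it was called in all of them. Ccl5 was the only tested member of the list that did not pass (-0.31, adjusted p = 0.104), though it did on both FPKM scales (-0.34 and -0.35). Transcripts of Ifnb1, the interferon itself, had at most 2 counts in any library. Beside these lists, the shares of all tested genes called are those given above, 9.46% higher and 12.4% lower, and their median was -0.00. Neither target list is specific to Toll-like receptors, since other receptors induce the same genes, and no activity of a receptor was measured.

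**Figure D4:**
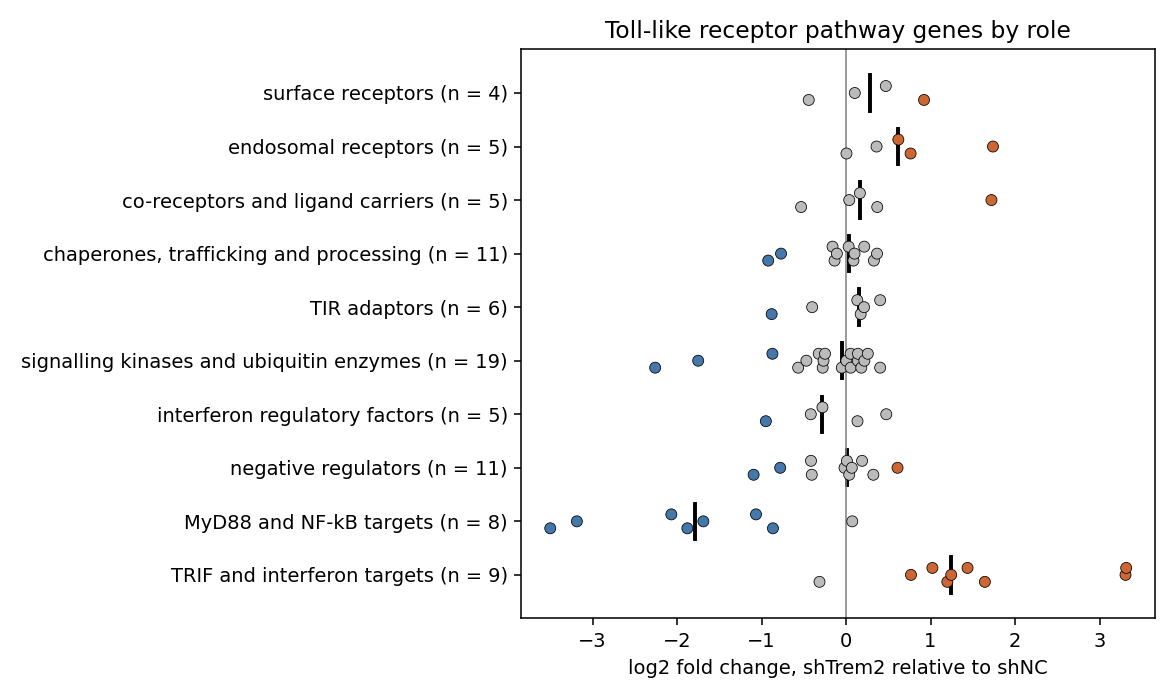
Log2 fold change of shTrem2 relative to shNC (x axis) for tested genes of the Toll-like receptor pathway, grouped by role with the number tested. Each point is a gene, orange where called higher, blue where called lower and grey otherwise, and black bars are medians. Targets of Myd88 and NF-kB have a median of -1.78 and targets of TRIF and interferon one of 1.25, while receptors lie mostly to the right of 0.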

How the data were processed

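Per the study's methods and the labels, the authors used fastp for trimming, HISAT2 for alignment and StringTie for transcript assembly. The submitters' processing notes name build GRCm39. The counting tool, the versions and the annotation release are not given in the sources used here. The authors deposited estimated counts per transcript, neither scaled for depth nor length, of which 79.3% of nonzero values were not whole, and FPKM per gene, which are scaled for both.

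Transcript values were added up for each symbol, then rounded. Rows without a symbol (0.908% to 1.12% of counts) were left out. Symbols of 13528 genes passed filterByExpr and were tested with edgeR 4.0.16 (TMM, glmQLFit, glmQLFTest, no covariates) in R 4.3.3, with Benjamini-Hochberg adjustment. Called genes had an FDR under 0.05 and a fold change over 1.5. CPM values are TMM-scaled, SE is the log2 fold change over the root of the F statistic, and fold changes are fitted. The edgeR code was tested on simulated data. Alternatives used limma 3.58.1, DESeq2 1.42.0, other scalings, filters and call rules, an offset for effective length (count over FPKM), the replicate block, and each library left out in turn. A count of 0 was taken to allow up to 3 counts, for counting error only.

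The receptors and gene lists were chosen with earlier results of these data known. Named were all receptors, Trem2, a set of co-receptors, chaperones, adaptors and targets irrespective of their result, and up to 4 called genes per list by absolute change with mean log2 CPM of at least 1. Pik3ap1, Irf7, Cxcl2, Ccl5 and Il1b were named after their values were seen. Promoter windows and shared stretches come from RefSeq and GENCODE of build GRCm38.p6, not the build of the counts.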

Additional observations from a re-analysis of the deposited data

How the results depend on the processing

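The directions and calls of Tlr2, Tlr3 and Tlr7 held in all 17 alternative fits, and the FDR threshold was passed by Tlr1, Tlr4 and Tlr13 in all 17. Trem2 was called lower in all 17, but the size of its log2 fold change ran from -2.08 to -0.77. Genes called numbered 2951, with 2911 under the replicate block, 2785 with DESeq2, 7763 with no limit on fold change, 1339 with over 2-fold change, and 2789 to 3105 with 1 library left out. Receptors called numbered 4, with 7, 1 and 3 to 4 under those last 3 settings. The surface median of 0.29 became 0.49 with the effective-length offset, 0.43 on log2(FPKM + 1) and 0.45 on log2(FPKM + 0.1), and 0.22 to 0.36 with 1 library left out. The endosomal median of 0.62 became 0.78 with the offset, 0.78 on log2(FPKM + 0.1), and 0.47 to 0.74 with 1 library left out. The difference in endosomal share ran from -0.265 to 2.26 points with 1 library left out. The offset gave Tlr6 0.39 (adjusted p = 0.0255) and Tlr1 -0.28 (0.0351). Tlr8 was 0.59 with library size only (adjusted p = 0.05), 0.62 under the replicate block (0.0657), 0.62 with DESeq2 (0.0645) and 0.47 to 0.75 with 1 library left out (0.0343 to 0.152). Tlr9 changed sign around 0, at -0.0147 with upper quartile normalization, -0.0291 with library size only, -2.32e-05 with at least 10 counts in every sample, -0.0215 on log2(FPKM + 1), -0.0266 on log2(FPKM + 0.1), and -0.0467 to 0.0359 with 1 library left out. So did Ly96 (-0.14 to 0.24 with 1 library left out) and Unc93b1 (-0.0031 with library size only). The cause was not tested. The replicate block changed no other call of a receptor. Deviations of same-numbered libraries had correlations of 0.00618, -0.00441 and 0.00657, and no library correlated best with its own number, so the samples share only a number. Cxcl2 was -0.42 with the offset, -0.44 on log2(FPKM + 1), -0.45 on log2(FPKM + 0.1) and -0.0651 to 0.139 with 1 library left out. A count of 0, as for Tlr5, allows up to 3 counts at this depth, and Tlr8 rests on 31 to 74 counts a library.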
